A study of Mus musculus with 12 samples.

Results

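The 41 genes described here act in the interferon response or in antigen presentation. The rule names them and uses no measured value, and they are 41 of the 21886 genes that were given a promoter region. For each gene the measurement was the number of bp covered by H3K4me3 peaks within 1 kb of the gene start, called covered bp below, in each of 6 libraries, with H3K27me3 over the gene or its 5 kb flanks beside it. Psmb9 and Tap1 are transcribed away from each other from a shared promoter and were counted as 1 region, so the 41 genes lie in 40 regions.

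Cells sense interferons through receptor pairs that activate STAT and IRF transcription factors, and these bind short motifs in the promoters of interferon-stimulated genes. Many of the induced genes build the MHC class I pathway, in which the immunoproteasome cuts proteins into peptides, the TAP transporter carries them into the endoplasmic reticulum, and class I molecules with beta-2 microglobulin display them to CD8+ T cells. Epithelial cells, those of mammary tumours included, can present peptides on class I, whereas MHC class II is mainly a feature of professional antigen-presenting cells and appears in epithelia mostly after exposure to interferon gamma.

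The libraries were made by CUT&Tag, in which a protein A fusion of the Tn5 transposase cuts DNA next to an antibody bound to the histone mark. H3K4me3 sits at the starts of active or poised genes, and H3K27me3 is laid down by Polycomb complexes at silent ones. The cells came from organoids (also called spheroids in the labels) derived from the mouse PyMT breast cancer model and labelled WT, taken 3 days after a control treatment (Ctrl), SR2 or THC, with 2 libraries per treatment and mark. Every group shares the tumour origin, and the labels give neither a dose nor the age of any mouse. The labels do not spell out the name SR2. In the PyMT model a viral oncogene drives mammary tumours. Replicate numbers equal the batch numbers of the labels, and nothing says whether replicates were separate cultures, so the spread between them may be technical. RNA levels were not analysed here. Because each library pools many cells, fewer cells with the mark and less mark per cell cannot be told apart.

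Promoter sequences are shown for 5 members that span the range of the mark described below. They are the RefSeq GRCm38.p6 (mm10) sequences from 250 bases before to 50 bases after the gene start, 5′ to 3′ on the gene's strand. B2m (chr2:122147437-122147736, plus strand) and Irf1 (chr11:53769764-53770063, plus strand) were marked by H3K4me3 in all 6 libraries. Oas1a (chr5:120907476-120907775, minus strand) was marked in 5. Isg15 (chr4:156200769-156201068, minus strand) and Ifit3 (chr19:34583279-34583578, plus strand) were marked in none. Capitals mark matches to either of 2 motifs searched on both strands, the interferon-stimulated response element (ISRE, searched as GAAA, any 2 bases, GAAA) and the gamma-activated site (GAS, TTCNNNGAA). A match to the ISRE on the other strand reads TTTC, any 2 bases, TTTC, and matches that overlap run together in capitals.
B2m: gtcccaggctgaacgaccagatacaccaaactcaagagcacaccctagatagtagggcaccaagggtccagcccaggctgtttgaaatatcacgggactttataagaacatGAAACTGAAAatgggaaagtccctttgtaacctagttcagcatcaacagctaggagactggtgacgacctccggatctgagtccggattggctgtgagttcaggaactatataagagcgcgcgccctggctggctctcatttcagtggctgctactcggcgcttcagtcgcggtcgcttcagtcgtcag
Irf1: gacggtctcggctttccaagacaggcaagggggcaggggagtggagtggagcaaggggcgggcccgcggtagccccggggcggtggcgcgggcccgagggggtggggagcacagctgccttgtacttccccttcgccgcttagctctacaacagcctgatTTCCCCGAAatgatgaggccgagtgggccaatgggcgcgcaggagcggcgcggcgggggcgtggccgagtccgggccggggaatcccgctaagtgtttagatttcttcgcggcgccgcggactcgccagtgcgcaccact
Oas1a: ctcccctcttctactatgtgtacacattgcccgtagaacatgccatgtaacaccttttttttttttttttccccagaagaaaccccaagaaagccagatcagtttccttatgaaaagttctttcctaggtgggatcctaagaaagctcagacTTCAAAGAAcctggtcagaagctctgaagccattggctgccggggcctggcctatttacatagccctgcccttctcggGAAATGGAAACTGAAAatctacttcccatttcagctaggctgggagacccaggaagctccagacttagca
Isg15: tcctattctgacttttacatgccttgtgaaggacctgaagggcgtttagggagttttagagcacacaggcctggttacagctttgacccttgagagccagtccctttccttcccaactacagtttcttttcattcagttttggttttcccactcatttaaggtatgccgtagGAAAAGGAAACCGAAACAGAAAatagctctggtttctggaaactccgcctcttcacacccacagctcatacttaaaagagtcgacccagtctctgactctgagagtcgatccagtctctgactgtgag
Ifit3: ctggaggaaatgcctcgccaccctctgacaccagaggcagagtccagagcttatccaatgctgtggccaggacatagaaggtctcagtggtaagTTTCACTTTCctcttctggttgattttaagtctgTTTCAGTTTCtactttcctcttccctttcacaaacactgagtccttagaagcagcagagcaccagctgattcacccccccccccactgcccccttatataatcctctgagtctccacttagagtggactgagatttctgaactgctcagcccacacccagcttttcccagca

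The ISRE letters were present at 139 bases before the start in B2m, and 3 overlapping copies lay between 78 and 66 bases before the start in Isg15 (positions of the first bases of the first and last copy). Ifit3 held 2 copies on the other strand, Oas1a held 2 overlapping copies and 1 GAS, and Irf1 held 1 GAS. Of the 34 members with a promoter entry, 12 (35.3%) held the ISRE letters, against 3.35% of 21262 protein-coding promoters of the same length. The GAS letters were in 8 members (23.5%), against 7.69% of all. A match is a description of the letters and not of a bound site. The ISRE letters were found in 8 of the 26 members marked in all 6 libraries and in 2 of the 4 marked in none that have an entry.

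H3K4me3 peaks numbered 16442 to 18383 in the Ctrl libraries, 14812 to 15190 in SR2 and 11924 to 13229 in THC, and each covered 9.02 to 18.6 Mb. Over the 9255 promoter regions marked in all 6 libraries the median summit pileup, the number of fragments stacked at the peak summit, was 134 and 99 for Ctrl, 51 and 80 for SR2, and 24 and 56 for THC. THC replicate 1 stood apart, with the fewest peaks and with covered bp below the other 5 libraries in 73.3% of the 11312 promoter regions marked in at least 2 libraries. Of the members, 26 of 32 such regions were below the other 5 libraries in THC replicate 1. As a check of the labelled tumour cells, all 10 epithelial marker genes were marked in both Ctrl libraries, Epcam and Cdh1 among them. Of 18 markers of antigen-presenting and other blood cells 15 had no peak in any library, including Ptprc (CD45), Csf1r and Itgax, and of 7 fibroblast and endothelial markers 5 had none.

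Most genes of the class I pathway and of interferon sensing carried H3K4me3 at the start in every library, whereas MHC class II genes and the interferon-stimulated effectors mostly did not. Of the 40 member regions 27 (67.5%) were marked in all 6 libraries, against 41.2% of all 22487 promoter regions, 6 in 1 to 5 libraries, and 7 in none, against 47.1% of all. At least 2 libraries marked 32 of the 40, against 50.3% of all. The number of member regions with a peak was 33 and 30 for Ctrl, 28 and 31 for SR2, and 27 and 28 for THC.

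**Figure D1:**
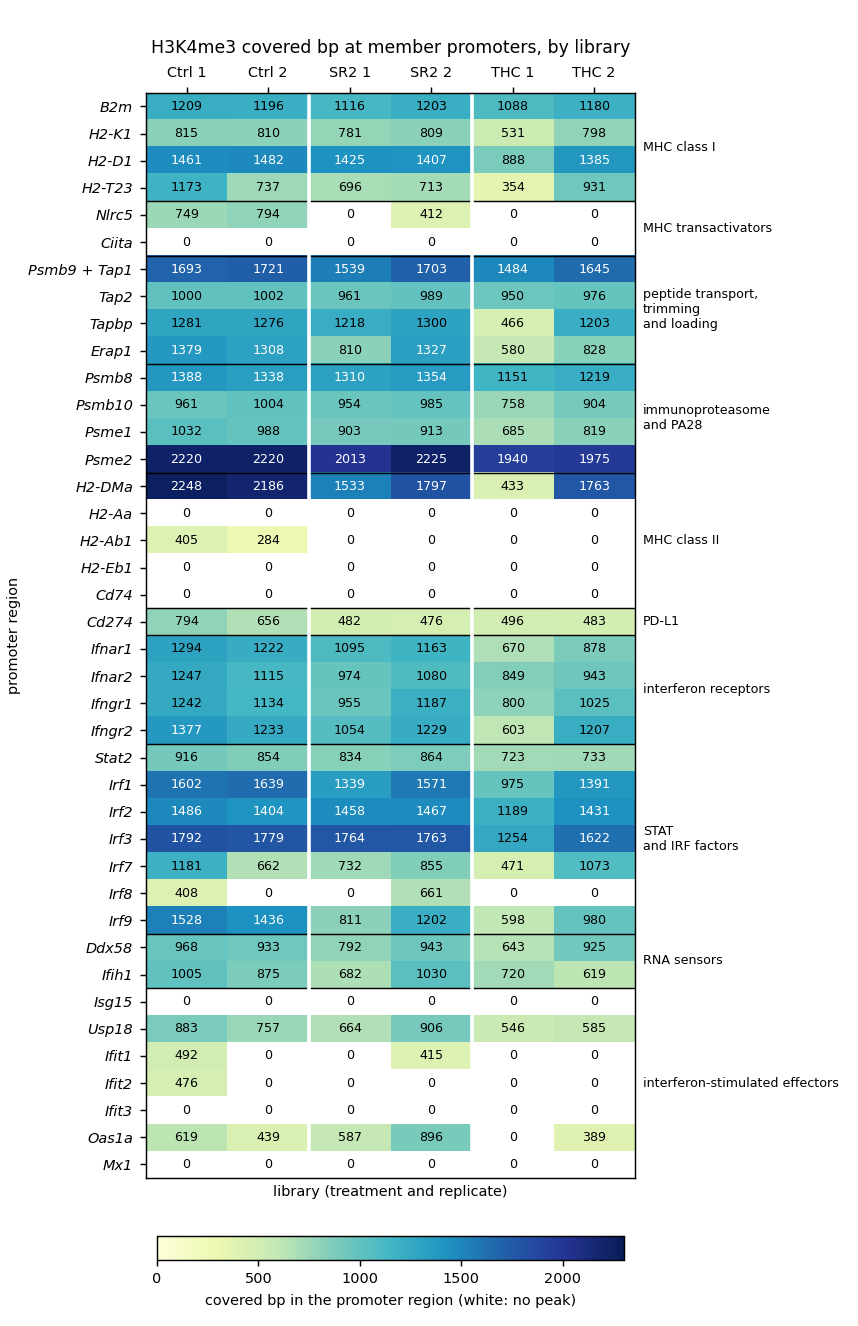
H3K4me3 covered bp in each of the 40 member regions (rows, grouped by role) in each of the 6 libraries (columns, treatment and replicate), where white cells are regions with no peak. Class I, peptide transport, immunoproteasome and receptor genes are filled in every column, and the rows of H2-Aa, H2-Eb1, Cd74, Ciita, Isg15, Ifit3 and Mx1 are empty.

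All 4 class I genes were marked in all 6 libraries. B2m, which encodes the light chain of class I, had 1209 and 1196 bp in Ctrl, 1116 and 1203 bp in SR2, and 1088 and 1180 bp in THC (replicates 1 and 2, here and below). The values lie close together, and those of SR2 overlap with Ctrl. The classical heavy chain gene H2-K1 had 815 and 810 bp in Ctrl, 781 and 809 bp in SR2, and 531 and 798 bp in THC. H2-D1, the other classical heavy chain gene, had 1461 and 1482 bp, 1425 and 1407 bp, and 888 and 1385 bp. At both genes THC replicate 1 was far below the other 5 libraries, which differed little. H2-T23, which encodes a non-classical class I molecule (Qa-1), had 1173 and 737 bp in Ctrl, 696 and 713 bp in SR2, and 354 and 931 bp in THC, so that the THC replicates lay on either side of Ctrl replicate 2. H2-K1 and H2-D1 are close sequence relatives of other class I genes, and the sources used here do not say how reads that fit several of them were treated.

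Peptide transport, trimming and loading genes were marked in every library too. The shared region of Psmb9, a catalytic subunit of the immunoproteasome, and Tap1, a subunit of the peptide transporter, had 1693 and 1721 bp in Ctrl, 1539 and 1703 bp in SR2, and 1484 and 1645 bp in THC. Tap2, the other transporter subunit, held nearly the same width throughout, with 1000 and 1002 bp in Ctrl, 961 and 989 bp in SR2, and 950 and 976 bp in THC. Tapbp encodes tapasin, which loads peptides onto class I, and had 1281 and 1276 bp, 1218 and 1300 bp, and 466 and 1203 bp. Only THC replicate 1 departed from the rest at Tapbp. Erap1, which encodes an aminopeptidase that trims peptides, had 1379 and 1308 bp in Ctrl, 810 and 1327 bp in SR2, and 580 and 828 bp in THC. Here SR2 replicate 1 and both THC libraries were below the others.

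The immunoproteasome genes and those of its activator PA28 ranged from 961 to 2220 bp in Ctrl, from 903 to 2225 bp in SR2 and from 685 to 1975 bp in THC. Psmb8, a catalytic subunit gene, had 1388 and 1338 bp in Ctrl, 1310 and 1354 bp in SR2, and 1151 and 1219 bp in THC. Psme2, a PA28 subunit gene whose region is shared with the start of Rnf31, was covered over 2220 bp in both Ctrl libraries, 2013 and 2225 bp in SR2, and 1940 and 1975 bp in THC. THC values were below both Ctrl values at both of these genes, while 1 SR2 library at each lay within the Ctrl values or above them. At Psmb10, a further catalytic subunit gene, and Psme1, a PA28 subunit gene, THC was below Ctrl as well, with 961 and 1004 bp and 1032 and 988 bp in Ctrl against 758 and 904 bp and 685 and 819 bp in THC.

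The transactivator genes of the MHC were weakly marked or not marked. Nlrc5, which encodes the transactivator of class I genes, had 749 and 794 bp in the Ctrl libraries and 412 bp in the second SR2 library. The first SR2 library and both THC libraries had no peak there. Its summit pileup was 23 and 12 fragments in the Ctrl libraries and 11 in SR2 replicate 2, and its peak stood at percentiles 38.2 and 15.3 of the authors' −log10 q within the Ctrl lists, in the lower part of each list. Ciita, which encodes the class II transactivator, had no peak in any library, and the nearest H3K4me3 peak was at least 61674 bp away.

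Class II genes were mostly without H3K4me3. H2-Aa, H2-Eb1 and Cd74 (the invariant chain gene) had no peak within 1 kb of the start in any library. H2-Ab1, which encodes the class II beta chain, had 405 and 284 bp in Ctrl and no peak in the SR2 and THC libraries. Its summit pileup in Ctrl was 25 and 20 fragments. Only the Ctrl libraries had a peak at this gene, and both peaks were narrow and about as low as those of Nlrc5. The blood cell markers beside it had summed covered bp of 1524 and 687 for Ctrl, 353 and 903 for SR2, and 0 and 613 for THC, all of it from Cd68, Spi1 and Batf3, and the part of such cells in the H2-Ab1 peaks was not tested. H2-DMa, which encodes a peptide exchange factor, was counted as marked with 2248 and 2186 bp in Ctrl, 1533 and 1797 bp in SR2, and 433 and 1763 bp in THC. That region (mm10 chromosome 17, 34120747 to 34123832) is shared with a start of Brd2, a broadly active chromatin gene, and the other start of H2-DMa, at 34125518, had no peak in any library. The wide H3K4me3 there cannot be given to H2-DMa.

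**Figure D2:**
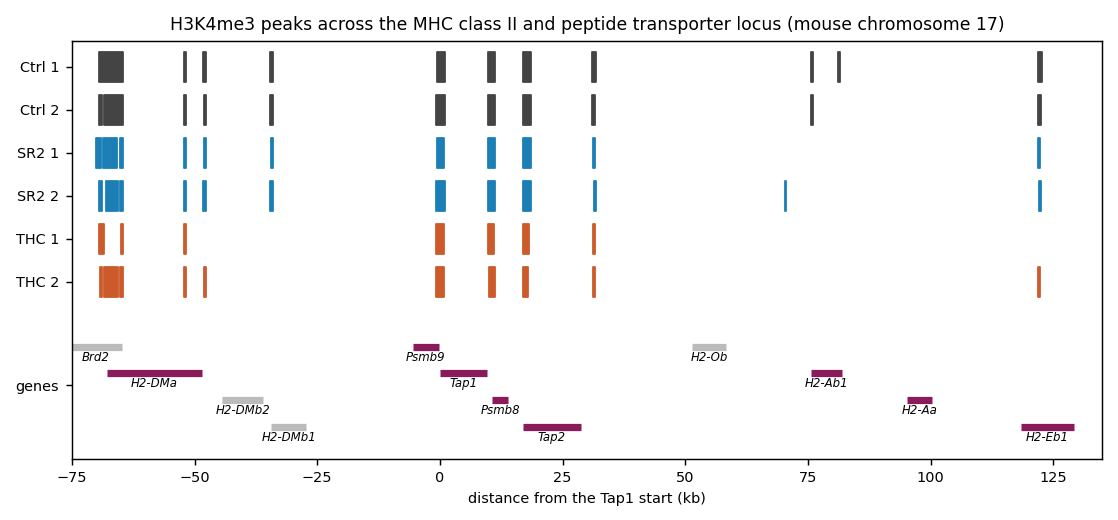
H3K4me3 peaks (bars) of the 6 libraries along mouse chromosome 17, as distance in kb from the Tap1 start, with genes below (members in purple, others in grey). Peaks repeat in every library at Psmb9 and Tap1, Psmb8, Tap2 and just beyond Tap2. From there on, with that peak counted, the libraries have 1 to 4 peaks each, and H2-Ab1 is covered at its start in Ctrl only.

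Along this stretch of chromosome 17 the class I processing genes and the class II genes lie next to each other. From the Brd2 and H2-DMa region to Tap2 the Ctrl libraries held 7 and 8 peaks, those of SR2 10 and 9, and those of THC 6 and 8. These counts take in peaks over Brd2. There a single peak of Ctrl replicate 1 (−69.579 to −64.562 kb from the Tap1 start) stood as shorter peaks in every other library, Ctrl replicate 2 included. The number of peaks is thus not a measure of covered bp. Beyond Tap2, as far as H2-Eb1, the Ctrl libraries held 4 and 3 peaks. Those of SR2 held 2 and 3, and those of THC 1 and 2. In every library these counts include a peak that began 30.897 to 31.289 kb from the Tap1 start, before H2-Ab1 at 75.671 kb. In THC replicate 1 that peak was the only one counted. The H2-Eb1 gene carried a peak inside the gene, away from its start, with 720 and 586 bp in Ctrl, 425 and 457 bp in SR2, and 0 and 374 bp in THC.

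Cd274, which encodes the T cell inhibitory ligand PD-L1, was marked in all libraries with the narrowest peaks of the genes so marked in SR2. It had 794 and 656 bp in Ctrl, 482 and 476 bp in SR2, and 496 and 483 bp in THC. Both treatments were below both Ctrl values and close to each other.

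All 4 interferon receptor genes were marked throughout. Ifnar1, a type I interferon receptor chain, had 1294 and 1222 bp in Ctrl, 1095 and 1163 bp in SR2, and 670 and 878 bp in THC. Its partner Ifnar2 had 1247 and 1115 bp, 974 and 1080 bp, and 849 and 943 bp. For both genes the 3 groups did not overlap, in the order Ctrl, SR2, THC. The same order was present at H2-D1, Irf3 and Psme1 (903 and 913 bp in SR2). Its share over all promoter regions was not counted, so the order is not shown to be particular to these genes. Of all regions marked in at least 2 libraries, 45.9% had both SR2 values below both Ctrl values. In 46.4% both THC values were below both SR2 values. The interferon gamma receptor gene Ifngr1 had 1242 and 1134 bp in Ctrl, 955 and 1187 bp in SR2, and 800 and 1025 bp in THC, and Ifngr2 had 1377 and 1233 bp, 1054 and 1229 bp, and 603 and 1207 bp. At Ifngr1 SR2 overlapped with Ctrl, and at Ifngr2 both treatments were below Ctrl but overlapped with each other.

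Among the 7 STAT and IRF genes 6 were marked in every library. Irf9, the DNA-binding subunit of the complex that binds the ISRE, had 1528 and 1436 bp in Ctrl, 811 and 1202 bp in SR2, and 598 and 980 bp in THC. Both treatments were below Ctrl, and SR2 and THC overlapped. Stat2, its partner in that complex, in a region shared with Apof, had 916 and 854 bp in Ctrl, 834 and 864 bp in SR2, and 723 and 733 bp in THC. Irf1, an interferon-induced activator, had 1602 and 1639 bp, 1339 and 1571 bp, and 975 and 1391 bp. Irf3, the factor activated by viral sensors, in a region shared with Bcl2l12, had 1792 and 1779 bp in Ctrl, 1764 and 1763 bp in SR2, and 1254 and 1622 bp in THC. At these 3 genes both THC values were below both Ctrl values. Irf2, known as a repressor as well as an activator, had 1486 and 1404 bp in Ctrl, 1458 and 1467 bp in SR2, and 1189 and 1431 bp in THC. Both treatments overlapped with Ctrl, and THC was below SR2. Irf7, the main amplifier of type I interferon, had the widest gap of the members between its Ctrl replicates, with 1181 and 662 bp in Ctrl, 732 and 855 bp in SR2, and 471 and 1073 bp in THC. Irf8, a factor of myeloid cells, was marked only in Ctrl replicate 1 (408 bp) and SR2 replicate 2 (661 bp).

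The RNA sensor genes were marked in all libraries. Ddx58, which encodes RIG-I, had 968 and 933 bp in Ctrl, 792 and 943 bp in SR2, and 643 and 925 bp in THC. Ifih1, which encodes MDA5, had 1005 and 875 bp, 682 and 1030 bp, and 720 and 619 bp. THC was below Ctrl at both genes, and SR2 overlapped with Ctrl.

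Of the 7 effector genes only Usp18, which encodes a protease that removes ISG15 from proteins and damps receptor signalling, was marked in every library. It had 883 and 757 bp in Ctrl, 664 and 906 bp in SR2, and 546 and 585 bp in THC. Oas1a, which encodes a sensor of double-stranded RNA that triggers RNase L, had 619 and 439 bp in Ctrl, 587 and 896 bp in SR2, and 0 and 389 bp in THC. SR2 was not below Ctrl here, and THC was below both. Ifit1, which binds foreign RNA ends, was marked only in Ctrl replicate 1 (492 bp) and SR2 replicate 2 (415 bp), in a region shared with Ifit1bl2. Its relative Ifit2 was marked only in Ctrl replicate 1 (476 bp). The summit pileup at these 3 effectors did not exceed 20 fragments in any library. Isg15, the ubiquitin-like modifier gene, Ifit3 and the antiviral gene Mx1 had no peak within 1 kb of the start. Mx1 is annotated as a transcribed pseudogene in the RefSeq table used. Around Isg15 there was H3K4me3 within 5 kb of the gene, 4195 and 3687 bp in Ctrl, 2866 and 3144 bp in SR2, and 2397 and 2888 bp in THC, but the nearest peak lay 2077 to 2260 bp from its start.

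Loss of a called peak was compared with all promoters. Of the members marked in both Ctrl libraries, H2-Ab1 alone was marked in neither SR2 library, while 1.94% of the 11054 promoter regions marked in both Ctrl libraries behaved so. H2-Ab1 and Nlrc5 were the members marked in neither THC library, against 6.53% of those regions. With 30 member regions marked in both Ctrl libraries, these are shares near the background. With the same number of peaks taken from every library (11924, the strongest by the authors' −log10 q) Nlrc5 was no longer counted for THC and H2-Ab1 still was for both treatments. Without Ctrl replicate 2 the members counted for THC were 5 (Ifit1, Ifit2 and Irf8 as well), where the share over all regions rose to 10.6%. Those for SR2 were 2, against 5.02% of all, and also 2 without SR2 replicate 2, against 5.61%. No member was marked in both libraries of a treatment and in neither Ctrl library, which 0.0288% of the regions marked in both SR2 libraries and 0% of those marked in both THC libraries did. Nor was any member marked in both SR2 libraries and neither THC library (2.74% of the regions marked in both SR2 libraries) or the reverse (0.0323%).

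Widths were then compared region by region. Both SR2 values were below both Ctrl values in 15 of 32 member regions marked in at least 2 libraries, against 45.9% of all such regions, and both THC values were below both Ctrl values in 27 of 32, against 80.7% of all. No member region had both SR2 or both THC values above both Ctrl values, as 2% and 0.115% of all regions did. The 5 that overlapped or tied with Ctrl in THC were H2-T23, Irf2, Irf7, Irf8 and Ifit1. Both THC values were below both SR2 values in 13 of 32, against 46.4% of all, and above both in 1, Cd274, against 0.804%. These shares of members lie close to those of all promoters, most of which had fewer covered bp in THC than in Ctrl. Over all regions the median log2 change, before any centring of the libraries, was −0.11 for SR2 and −0.37 for THC, each against Ctrl, and −0.23 between THC and SR2.

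**Figure D3:**
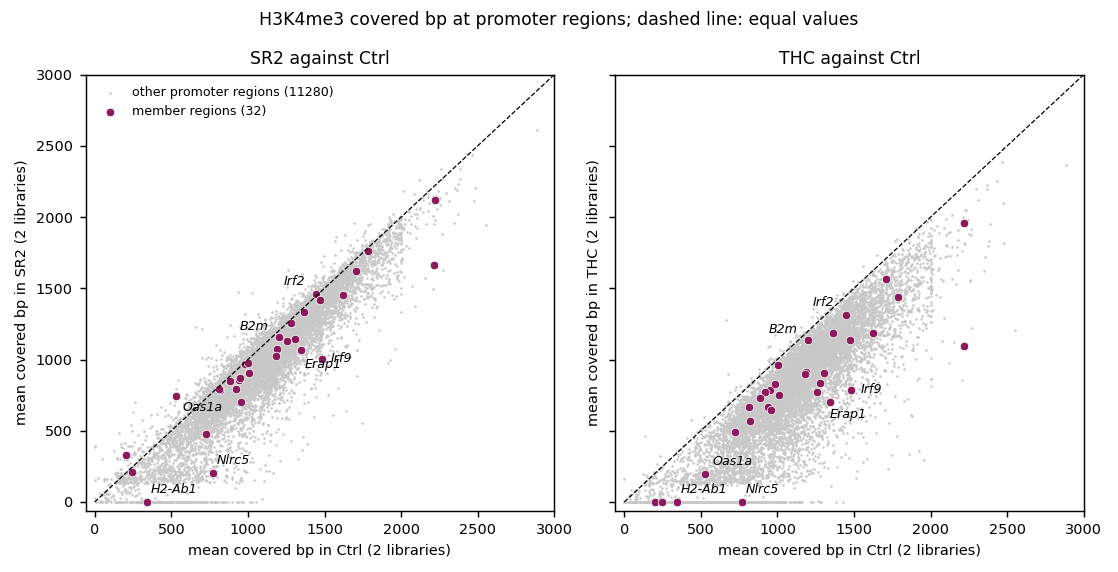
Mean covered bp of 2 SR2 libraries (left) or 2 THC libraries (right) against the mean of 2 Ctrl libraries at 11312 promoter regions (grey) and the 32 member regions among them (purple), with a dashed line at equal values. Most members lie within the cloud of all regions, which sits below the line for THC, and Nlrc5 and H2-Ab1 lie at 0 for THC.

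The test of width was limma on log2(covered bp + 200) over 11312 regions in 6 libraries, each library centred on its median over the 9255 regions marked in all 6, so its log2 changes are relative to the average promoter. Where a library has no peak, the size of the change follows from the added 200 bp. After Benjamini-Hochberg adjustment limma called 0% of the regions in each of the 3 comparisons, and no member. The smallest adjusted p over all regions was 0.512 for SR2 and 0.112 for THC, each against Ctrl, and 0.172 between THC and SR2. At an unadjusted p under 0.05 there were 391 narrower and 34 wider regions for SR2, 1354 and 862 for THC against Ctrl, and 712 and 300 for THC against SR2. The median log2 change of the 32 member regions was 0.0096 for SR2 and −0.042 for THC, each against Ctrl, and −0.00084 between THC and SR2, beside −0.0053, −0.041 and −0.0054 over all regions.

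For SR2 against Ctrl 3 member regions had an unadjusted p under 0.05, all with negative log2 changes, where 3.46% of all regions did so, and none had a positive one (0.301% of all). H2-Ab1 had a log2 change of −1.33 (SE 0.36, adjusted p 0.658), Nlrc5 −1.37 (SE 0.55) and Irf9 −0.39 (SE 0.16). None passed after adjustment. After quantile normalization H2-Ab1 was at −0.14 and Nlrc5 at −0.99.

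For THC against Ctrl 5 member regions had a negative log2 change at an unadjusted p under 0.05 (12% of all regions) and 4 a positive one (7.62% of all). The negative ones were Nlrc5 at −1.95 (SE 0.55, adjusted p 0.231), H2-Ab1 at −1.11 (SE 0.36), Irf9 at −0.46 (SE 0.16), Erap1 at −0.46 (SE 0.17) and Ifnar1 at −0.26 (SE 0.077). After quantile normalization H2-Ab1 was at 0.39, so that its direction depends on the scaling, and Nlrc5 at −0.90. The positive ones were Tap2 at 0.28 (SE 0.11), B2m at 0.26 (SE 0.084), the Psmb9 and Tap1 region at 0.21 (SE 0.081) and Irf2 at 0.20 (SE 0.066). A positive value here is relative to the average promoter, and without centring all 4 log2 changes were negative (−0.046, −0.073, −0.11 and −0.13). None of the 9 passed after adjustment. When THC was represented by replicate 1 alone, 11 of 32 member regions passed, 6 narrower and 5 wider, beside 3241 of all regions, whereas without THC replicate 1 no member passed and 38 of all regions did. Without THC replicate 1 Nlrc5 was at −2.08, H2-Ab1 at −1.23, Irf9 at −0.31, Erap1 at −0.38, Ifnar1 at −0.23, Tap2 at 0.17, B2m at 0.18, the Psmb9 and Tap1 region at 0.15 and Irf2 at 0.19.

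For THC against SR2 2 member regions had an unadjusted p under 0.05, both negative, beside 6.29% of all regions, and none was positive (2.65% of all). Oas1a had a log2 change of −1.22 (SE 0.47, adjusted p 0.527), which was −0.57 without THC replicate 1. Ifnar1 had −0.24 (SE 0.077, adjusted p 0.436). Neither passed after adjustment.

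A second measure was the height of the peak. The summit pileup of the strongest peak overlapping each region was divided by the library's median over the 9255 regions marked in all 6 libraries, called relative height. That summit can lie outside the region. It was 1234 to 1535 bp downstream of the start at Irf2 and 325 to 1267 bp downstream at Psmb10. The tallest member regions were Psme2, at 3.10 and 2.77 for Ctrl, 2.63 and 2.58 for SR2, and 3.13 and 3.14 for THC, H2-D1, at 2.58 and 2.86, 2.67 and 2.73, and 2.42 and 2.54, and the Psmb9 and Tap1 region, at 2.33 and 2.40, 2.53 and 2.76, and 2.25 and 2.82. These regions stood well above the average promoter in every library. The lowest were H2-T23, at 0.254 and 0.222 for Ctrl, 0.275 and 0.150 for SR2, and 0.375 and 0.321 for THC, and Cd274, at 0.284 and 0.343, 0.353 and 0.238, and 0.542 and 0.321. The sensors Ddx58 and Ifih1, together with Usp18, Irf7 and Irf9, were also below the library median in all 6 libraries.

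**Figure D4:**
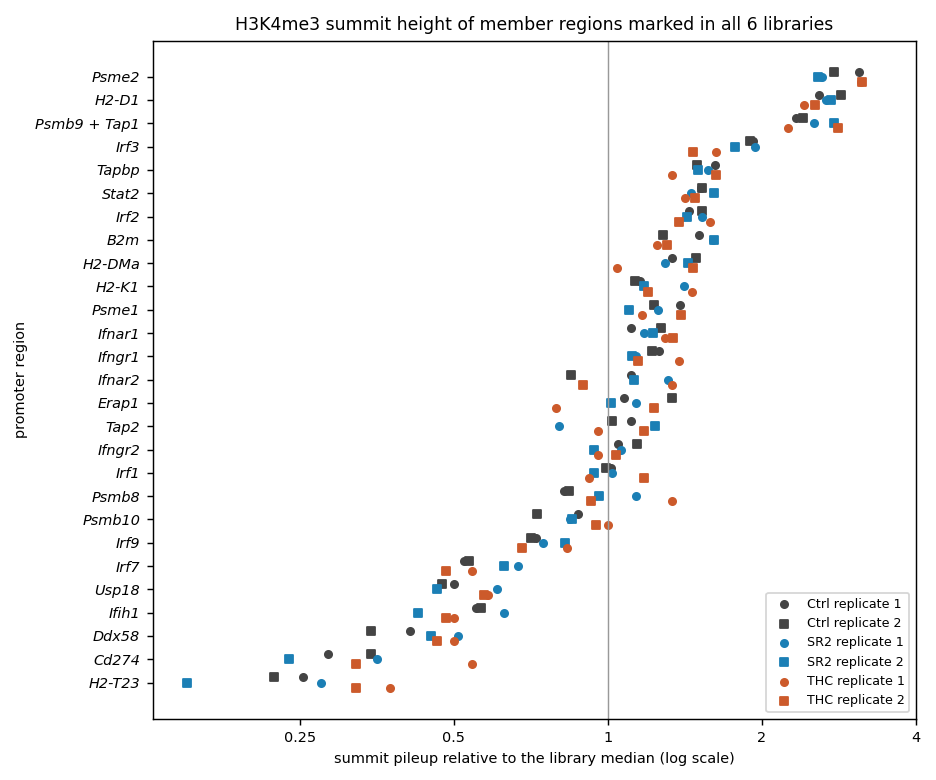
Summit pileup relative to the library median (log scale, 1 is the median of 9255 promoter regions) for the 27 member regions marked in all 6 libraries, with a point for each library coloured by treatment. The groups overlap at some genes and lie apart at others. Psme2, H2-D1 and the Psmb9 and Tap1 region lie above 2, and H2-T23, Cd274 and Ddx58 lie below 0.6.

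No difference in height passed the test at a member. Over the 27 member regions the median log2 change of height was −0.018 for SR2 and 0.0068 for THC, each against Ctrl, and 0.00093 between THC and SR2. After adjustment limma called 0 member regions in each comparison, where 0%, 0.0324% and 0% of the 9255 regions did. The unadjusted p was under 0.05 for 0, 2 and 3 member regions, beside 4.11%, 8.91% and 6.34% of all regions. For THC against Ctrl the height changes were about as large as their SE or smaller at Irf9, Ifnar1 and B2m. They were larger than their SE at Erap1, Psmb8 and Irf3. Irf9, with covered bp below Ctrl in both treatments, had a log2 change of height of 0.13 (SE 0.18) for SR2 and 0.079 (SE 0.18) for THC, and Ifnar1 0.14 (SE 0.14) for THC. B2m, with the positive change of width, had −0.13 (SE 0.13) in height for THC. Erap1, with a negative change of width, had −0.27 (SE 0.18). The members with an unadjusted p under 0.05 were Psmb8 at 0.41 (SE 0.17) and Irf3 at −0.32 (SE 0.12) for THC against Ctrl, and B2m at −0.34 (SE 0.13), Psme2 at 0.25 (SE 0.098) and Irf3 at −0.27 (SE 0.12) for THC against SR2.

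H3K27me3 peaks were few at the members, as at protein-coding genes in general. H2-Ab1 (314 bp), Psme2 (696 bp) and Isg15 (323 bp) had H3K27me3 over the gene or its 5 kb flanks in Ctrl replicate 1, and no member had any in the other 5 libraries. In both Ctrl libraries 0.763% of protein-coding genes had H3K27me3, and no member did. In Ctrl replicate 1 7.92% of 21883 protein-coding genes had such a peak, and 11.7% had one in at least 1 of 6 libraries. The H3K27me3 lists ran from 70 to 2712 peaks per library and their depth is unknown, so the absence of a peak says little at the genes without H3K4me3.

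The members with and without H3K4me3 also differed in the CpG content of the promoter. The ratio of observed to expected CpG in the 300-base promoter had a median of 0.626 in the 26 members marked in all 6 libraries and of 0.107 in the 4 marked in none, beside 0.567 over all protein-coding promoters. The ratio was 0.912 at Irf1 and 0.682 at B2m, and 0.188 at Oas1a, 0.377 at Isg15 and 0.0564 at Ifit3, whose sequences are printed above. Exceptions ran both ways. Psmb10 (0.192) and Irf7 (0.310) were marked in all libraries, and Irf8, with a ratio of 1.03, was marked in 2. The summit at Psmb10 lay 325 to 1267 bp downstream of the start, outside the 300-base promoter. These are descriptions over few promoters with no test.

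**Figure D5:**
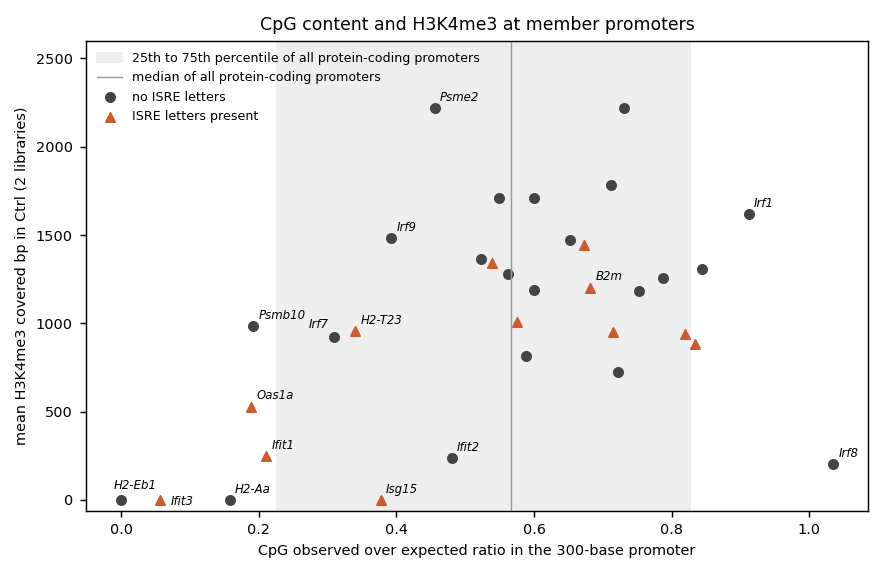
Mean H3K4me3 covered bp in 2 Ctrl libraries against the observed over expected CpG ratio of the 300-base promoter for the 34 members with a promoter entry (triangles hold the ISRE letters), with the median and the 25th to 75th percentile of all protein-coding promoters in grey. Members at 0 bp lie at ratios up to 0.377, and promoters with ISRE letters occur at both high and low covered bp.

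Other genes of these pathways were counted in the same way, beside the 41.2% of all promoter regions marked in all 6 libraries and the 47.1% marked in none. Of 16 promoter regions of interferon ligands and signalling genes 11 were marked in all 6 libraries, and the interferon genes Ifnb1, Ifng, Ifnl2 and Ifnl3 had no peak in any. Of 12 nucleic acid sensing genes 8 were marked in all 6, of 28 other antigen processing and MHC genes 21 were and 6 had none, and of 34 regions of other interferon-stimulated genes 16 were and 6 had none. None of the 11, 11, 22 and 23 regions tested in these lists passed limma after adjustment in any comparison. For THC against Ctrl the median log2 changes of the 4 lists were −0.049 for ligands and signalling, −0.40 for sensing, 0.028 for antigen processing and −0.25 for other interferon-stimulated genes, beside −0.041 over all regions. For SR2 against Ctrl they were −0.0067, 0.041, −0.022 and −0.070. The 10 epithelial markers, all tested, had medians of −0.53 for THC and −0.033 for SR2, each against Ctrl, and 6 of them had a peak in THC replicate 1 against 10 in each other library. The part of that library in these medians was not tested. Of these lists 3 genes were marked in both Ctrl libraries, in both SR2 libraries and in neither THC library, where 2.74% of all regions marked in both SR2 libraries and 6.53% of those marked in both Ctrl libraries had no peak in THC. Tlr3, an endosomal sensor of double-stranded RNA, had 648 and 962 bp in Ctrl and 624 and 625 bp in SR2 (log2 change for THC against Ctrl −1.98, SE 0.33, adjusted p 0.125). Sting1, listed under its older symbol Tmem173, which relays DNA sensing, had 1238 and 532 bp in Ctrl and 427 and 773 bp in SR2 (−2.03, SE 0.42, adjusted p 0.155). H2-DMb1, which encodes a chain of the class II peptide exchange factor, had 537 and 655 bp in Ctrl and 314 and 688 bp in SR2 (−1.66, SE 0.38, adjusted p 0.171). None of the 3 passed in the centred limma test of all 6 libraries, and Tlr3 passed without centring (adjusted p 0.0488).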

How the data were processed

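CUT&Tag of H3K4me3 and of H3K27me3 gave 12 libraries, 6 for each of 2 marks. Per the labels' protocols each used 500000 cells, 60 min of tagmentation and paired-end reads of 150 bp. The build was mm10, and MACS3, bedtools, deepTools, SAMtools 1.8, Picard, Bowtie2 2.5.4 and cutadapt 5.2 are listed without roles, per the submitters' processing notes. The authors deposited 1 peak list per library with, per peak, a score, a fold enrichment, a −log10 p and a −log10 q. The deposited score is 10 times the −log10 q, and the deposited fold is a ratio within 1 library. These values are the authors' own and served to rank or filter peaks within a list. Filters and caller settings are not given in the sources used here.

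Gene starts and strands came from RefSeq tables of GRCm38.p6, the assembly of mm10. Starts within 1 kb of each other were joined. Of the members 34 had a start entry, and 7 (H2-Ab1, Cd74, Ciita, Nlrc5, Tap2, Mx1 and Usp18) were placed at the gene end with more covered bp, or at the lower coordinate where both had none. Only autosomes, X and Y were used. Regions marked in at least 2 libraries were tested with limma 3.58.1 (trend, R 4.3.3, all 6 libraries, threshold 0.05 after Benjamini-Hochberg adjustment over all regions). Presence of a peak was counted without a test, since an exact permutation test of 2 against 2 libraries cannot go below 0.333. Peak lists hold no read totals. Summit pileups were recovered as whole numbers from the deposited fold and −log10 p, for at least 99.99% of H3K4me3 peaks, and their comparison was added after seeing the data. The script was run on simulated data with less spread than the real regions and a peak in every library. That run checks the code and not how the test performs on these data. Replicate numbers are batch numbers in the labels, which pairs the samples of a batch, and deviations of same-numbered samples correlated at −0.11 (Ctrl and SR2), 0.013 (Ctrl and THC) and 0.086 (SR2 and THC) over 11312 regions. All members were named. From the other lists a gene was named where it was marked in both libraries of 1 group and neither of another, or passed limma. The members and lists were chosen with earlier results of these data known.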

Additional observations from a re-analysis of the deposited data

How the results depend on the processing

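The 3 comparisons of width and the 2 counts of lost peaks were recomputed with other pseudocounts, filters, scalings, windows and peak thresholds and with each library left out. SR2 against Ctrl gave 0 calls by limma in every setting run. THC against Ctrl gave 222 calls without centring, 3 with 11924 peaks from each library and 3 for summit pileup, and 0 to 3241 with 1 library left out. THC against SR2 gave 1 call with equal numbers of peaks and 0 to 2447 with 1 library left out. The highest counts were those without THC replicate 2, where the lone THC library is assumed to vary like the others, and without THC replicate 1 the counts were 38 and 22. Members marked in both Ctrl libraries and neither SR2 library numbered 1 to 2 with 1 library left out, beside 2.60% to 5.61% of all regions. For THC they numbered 1 with equal numbers of peaks (1.93% of all). With 1 library left out they numbered 2 to 5, beside 7.41% to 15.1% of all. When only peaks with a −log10 q of 5 or more were kept, those for THC were Oas1a and H2-Ab1 (7.87% of all). With the replicate block limma called 0 regions in all 3 comparisons, and 0 for SR2 against Ctrl with the numbers paired as labelled or crossed in the 4 libraries compared, and it changed no other call.

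Of 353 values of single genes under these settings 334 kept their direction and side of the threshold, 12 passed where they had not (11 of them without THC replicate 2), and 7 reversed. The Psmb9 and Tap1 region entered these counts under both gene names, with the same values. For THC against Ctrl without centring B2m was at −0.073, Tap1 and Psmb9 at −0.11, Tap2 at −0.046 and Irf2 at −0.13. Tap2 was at −0.14 with 2 kb on each side of the start, and H2-Ab1 at 0.39 after quantile normalization. The cause was not tested. Median summit pileup was 24 in THC replicate 1 against 134 in Ctrl replicate 1, and the peaks of H2-Ab1, Nlrc5, Irf8, Ifit1, Ifit2 and Oas1a had 9 to 25 fragments at the summit where they were called, so their absence from other libraries may not be read as absence of the mark.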
